A study of Mus musculus with 12 samples.

Results

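The genes described here encode splicing factors of 4 protein families in mouse liver. They are the rows of the Ribo-seq table whose symbol is Snrp followed by letters or digits (12 genes, proteins of the small nuclear ribonucleoproteins, snRNPs), Sf3a or Sf3b followed by a digit (9 genes, the SF3 complex), Srsf followed by a number (11 genes, SR proteins) or Hnrnp followed by letters or digits (20 genes, heterogeneous nuclear ribonucleoproteins, hnRNPs). This rule gave 52 of 25033 rows and used no measured value. A Ribo-seq library holds the short RNA fragments that ribosomes shield from RNase I in a tissue extract, so the reads on a gene are its ribosome footprints.

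The Ribo-seq libraries came from livers of male C57BL/6 mice, 16 weeks old, that had eaten a high-fat diet for 8 weeks from week 8 (HFD, n = 3) or the same diet with lycopene, the red carotenoid of tomato (LYC, n = 3). Both groups therefore shared the high-fat diet, and the comparison asks what the lycopene supplement added to it. The treatment label of LYC names the diet only, and the supplement is taken from the sample titles and the study's methods. The labels give each library a replicate number but also state that RNA or footprints were pooled before the libraries were made, so p-values may measure spread between libraries rather than between mice. In such bulk samples, fewer cells of a type and less RNA per cell cannot be told apart.

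The authors deposited RPKM, footprints scaled to gene length and library total, and the steps between these values gave the reads behind each of them. In replicate order, the HFD libraries held 2726202, 4405541 and 834410 reads and the LYC libraries 394461, 311050 and 412116. The RPKM of a single read, for a gene of 1 kb, was 0.227 to 1.2 in HFD and 2.43 to 3.21 in LYC. Every LYC library was thus shallower than every HFD library, and low members rest on few LYC reads. Intervals from such counts would cover counting error only. The summed RPKM of 9 hepatocyte markers was 44928 to 48512 in HFD and 31252 to 41391 in LYC, with 1 of the 9 called higher and none lower. The summed RPKM of 4 cholangiocyte markers was low, with 4.36 to 5.09 in HFD and 0.775 to 2.34 in LYC, and none was tested. Of these, Krt19, Krt7 and Epcam were at 0 in every LYC library, at the depth given above. No tested marker of macrophages, endothelial, stellate or erythroid cells was called, of 5, 4, 4 and 2 tested. The part of these differences in the results below was not tested.

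Pre-mRNA is spliced by the spliceosome, which is built on each intron from snRNPs. Most of these snRNPs have a small nuclear RNA held in a ring of Sm proteins. The U2 snRNP also carries the SF3A and SF3B complexes, which hold it at the branch point of the intron. SR proteins bind exons and help the spliceosome to choose splice sites, while hnRNPs coat the nascent transcript, often oppose that choice, and also act in export, stability and translation of mRNA. Many SR and hnRNP genes are known to tune their own mRNA through exons that introduce early stop codons.

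The start regions of 4 genes called between the diets, at least 1 of each family, are shown to place the motif counts given next. The sequences are the 150 bases before the RefSeq start site, from RefSeq on GRCm38.p6, written 5′ to 3′ on the strand of the gene. Capitals mark 3 motifs on either strand, which are CCAAT with its reverse complement ATTGG, then CGGAAG with its reverse complement CTTCCG, and last TGACGT with its reverse complement ACGTCA. Snrpe lies at chr1:133610281-133610430 on the minus strand, Sf3a3 at chr4:124714711-124714860 on the plus strand, Srsf3 at chr17:29032510-29032659 on the plus strand and Hnrnpa0 at chr13:58128557-58128706 on the minus strand. The Srsf3 window also holds exon sequence of the non-coding gene Gm16196, which runs the other way.
Snrpe: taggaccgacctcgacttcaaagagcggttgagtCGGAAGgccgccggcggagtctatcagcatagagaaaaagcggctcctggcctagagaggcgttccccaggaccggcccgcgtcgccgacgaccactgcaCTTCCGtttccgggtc
Sf3a3: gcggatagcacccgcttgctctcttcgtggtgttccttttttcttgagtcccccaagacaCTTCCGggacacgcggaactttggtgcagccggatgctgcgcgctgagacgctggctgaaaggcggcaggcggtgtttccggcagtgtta
Srsf3: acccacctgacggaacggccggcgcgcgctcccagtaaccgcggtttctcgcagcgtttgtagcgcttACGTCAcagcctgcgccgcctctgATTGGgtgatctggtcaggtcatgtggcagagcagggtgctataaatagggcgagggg
Hnrnpa0: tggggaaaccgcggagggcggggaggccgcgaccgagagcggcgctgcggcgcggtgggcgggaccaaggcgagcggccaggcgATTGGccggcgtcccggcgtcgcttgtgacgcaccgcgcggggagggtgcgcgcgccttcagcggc

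The motifs were chosen after these sequences had been read, and were then counted on both strands in the same window of the 46 members with a RefSeq promoter. TGACGT can overlap its own reverse complement, and a gene was counted once. CGGAAG, the core of sites bound by ETS factors, was in 7 of 10 Snrp promoters (70%) and 6 of 7 Sf3 promoters (85.7%). It was in 3 of 11 Srsf promoters (27.3%) and 3 of 18 Hnrnp promoters (16.7%), against 23.1% of 4537 tested genes with a promoter and 11.8% of all 27025. Snrpe and Sf3a3, whose sequences led to this choice, are among those counted, and the difference between families was not tested. CCAAT, the box bound by NF-Y, was in 13 of 18 Hnrnp promoters (72.2%) against 30.0% of Snrp, 14.3% of Sf3 and 27.3% of Srsf promoters. The share was 32.8% among the tested genes and 27.7% among all. TGACGT, the core of the cAMP response element, was in 8 of 46 members (17.4%), against 9.81% of tested genes and 5.86% of all. A match describes the letters of the window and is not evidence that a factor binds there.

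Levels were compared first within HFD, the deeper group. Of the 52 members, 51 had reads in at least 1 library and Srsf12 was listed at 0 in all 6. The highest mean RPKM in HFD was 62.1 ± 4.05 (SD, n = 3) for Hnrnpk, an hnRNP that binds C-rich RNA and DNA, and the lowest above 0 was 3.25 ± 0.169 (SD, n = 3) for Hnrnpr. The coefficient of variation of tested members had a median of 19.8% in HFD and 38% in LYC, close to the 20.0% and 39.6% of all tested genes.

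**Figure D1:**
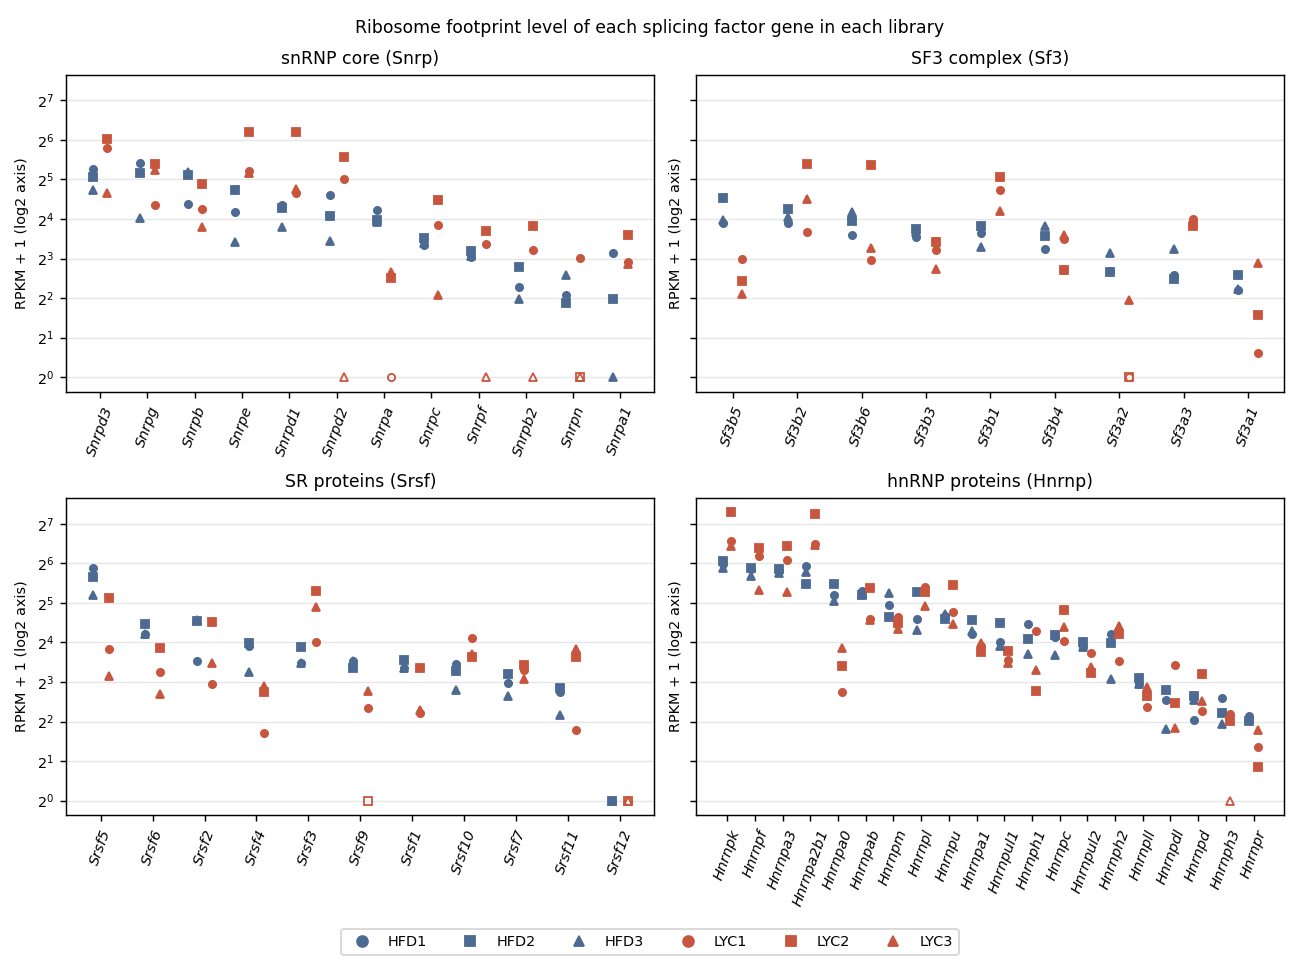
Deposited RPKM plus 1 (log2 axis) of all 52 genes in each library, with HFD in blue, LYC in red and a marker shape for each replicate; open symbols are LYC libraries at 0. Within each panel genes run from the highest to the lowest HFD mean, and the LYC points spread more widely, with a median coefficient of variation of 38% among tested members against 19.8% in HFD.

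RPKM divides by the whole gene length used in the table, whereas ribosomes cover the coding part, so levels of subunits were also set out per kilobase of RefSeq coding sequence, scaled to library total. On that scale the 7 Sm ring proteins, which sit in the ring in equal number, spanned a factor of 2.34 between the highest and the lowest HFD mean, against 4.22 in RPKM. Snrpg was highest with 52.1 ± 23.5 (SD, n = 3) and Snrpd2 lowest with 22.3 ± 9.23 (SD, n = 3), while Snrpg, Snrpd3 (50.6 ± 9.42) and Snrpb (47.7 ± 13.5) lay within each other's spread. The HFD levels of the ring thus lay closer together per coding length than per gene length. The 6 SF3B subunits went the other way, with a factor of 3.51 per coding kilobase and 1.58 in RPKM. The small subunits Sf3b5 (47.8 ± 12.9, SD, n = 3) and Sf3b6 (42.1 ± 8.88, SD, n = 3) stood above the scaffold subunit Sf3b3 (13.6 ± 1.08, SD, n = 3). In LYC the same factors were 4.34 for the ring and 5.93 for SF3B, at far lower depth. Srsf1, the founding SR protein, showed how much the divisor matters, since its 9.77 RPKM in HFD corresponded to 89.6 footprints per coding kilobase. Hnrnpa3, an RNA-binding relative of Hnrnpa1, was highest of all members per coding kilobase, with 253 ± 8.67 in HFD (SD, n = 3).

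**Figure D2:**
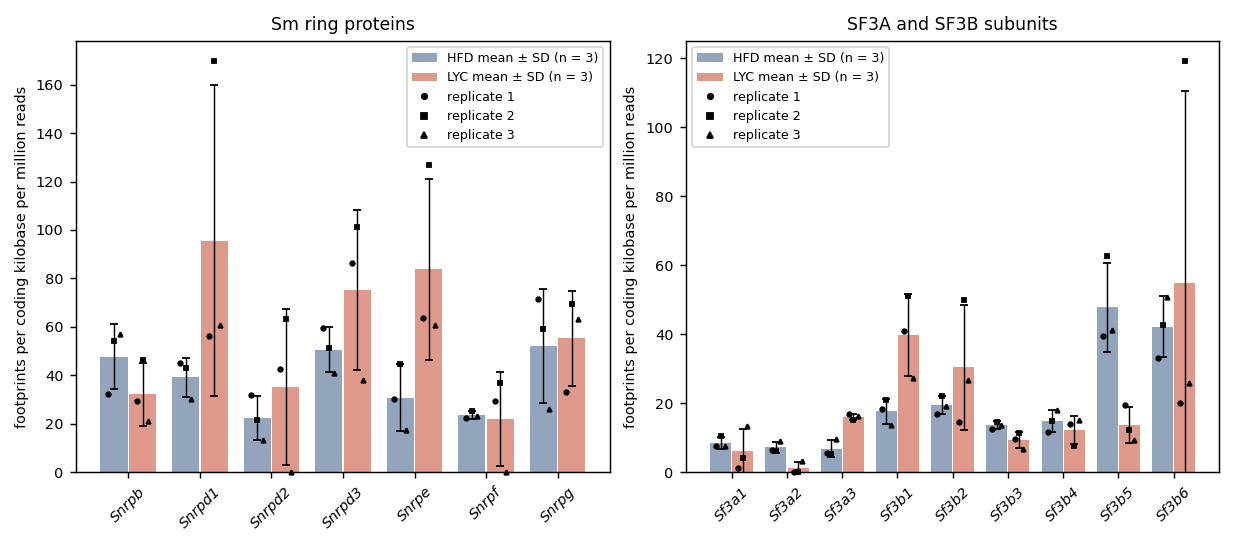
Footprints per coding kilobase, scaled to library total (linear axis from 0), of the Sm ring proteins and the SF3A and SF3B subunits, with bars for the mean of each diet group, error bars for the SD (n = 3) and points for libraries. HFD means of the ring run from 22.3 to 52.1, and the LYC error bars are mostly wider than those of HFD.

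The diet groups were then compared with limma (a moderated, two-sided test) on log2(RPKM / TMM factor + 1), TMM being the trimmed mean of M-values by which edgeR scales libraries. The 5776 genes with enough reads were fitted together, and a call needed an absolute log2 fold change above 1 with an unadjusted p below 0.01. Of the 39 members with enough reads, 7 were called higher in LYC (17.9%) and 1 lower (2.56%). Among all genes tested 6.86% were called higher and 6.41% lower. The members called higher came from every family: Snrpe and Snrpd1 of the Sm ring, Sf3a3 and Sf3b1 of SF3, the SR protein Srsf3, and the hnRNPs Hnrnpa2b1 and Hnrnpk. Hnrnpa0, another hnRNP, was called lower. With total reads as the only scaling, Snrpe and Sf3a3 were the calls higher (5.13% of members tested, 4.07% of all genes), and Hnrnpa0, Snrpa and Srsf5 the calls lower (7.69% against 11.3%), shares nearer to those of all genes. A gene was tested if at least 3 of the 6 libraries, of either group, had enough reads. Snrpe and Sf3a3 passed through LYC only, and Snrpa and Srsf4 through HFD only, so these 4 could enter the test only by being high in that group. Snrpe and Sf3a3 were also called in the fit with no filter. The list was selected by name, so these counts are a description, and the median log2 fold change over all genes tested was -0.10.

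**Figure D3:**
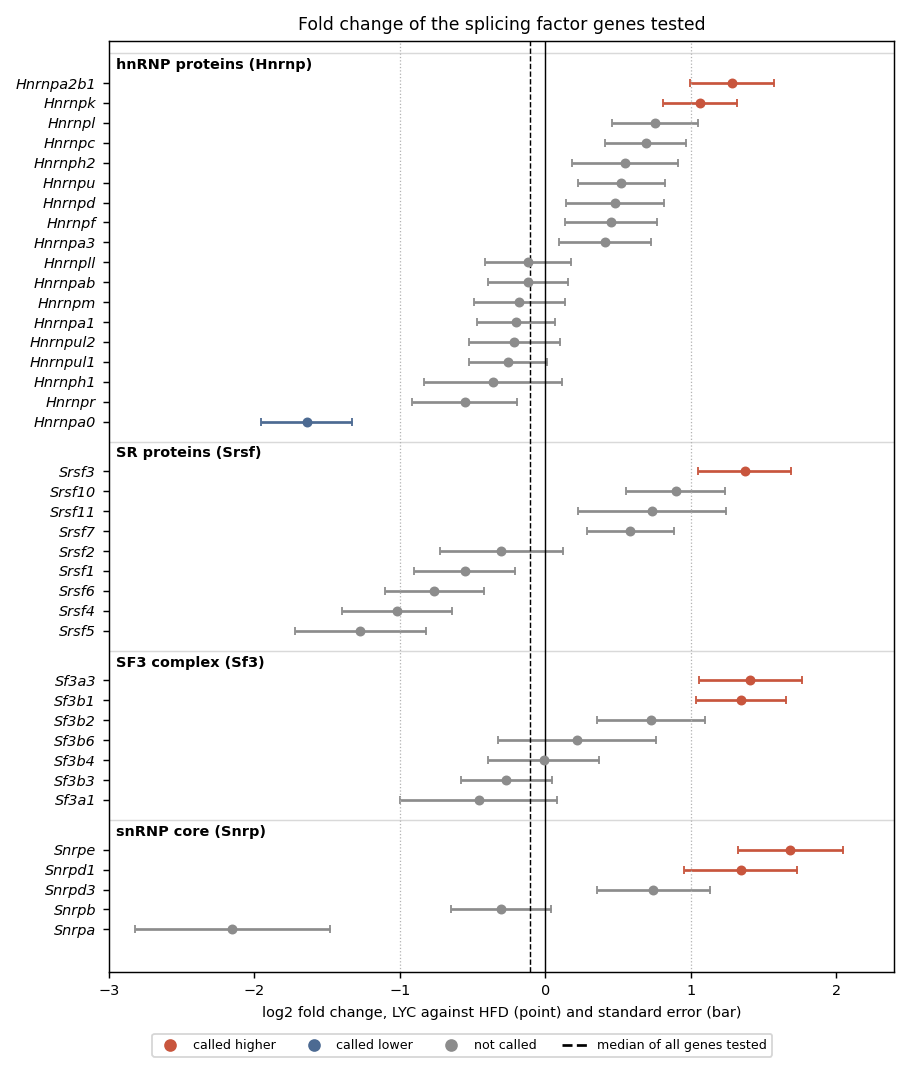
Fitted log2 fold change, LYC against HFD, of the 39 members tested (points), with standard errors (bars); red marks calls higher, blue the call lower, and the dashed line the median of all genes tested. Calls higher lie in each family, and of the 9 SR genes 4 lie above 0 and 5 below it.

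The Snrp family holds the Sm ring and a few proteins that bind particular snRNAs. Snrpe, a ring protein (gene at chr1:133603871-133610280), had 17.1, 25.4 and 9.74 RPKM in HFD1, HFD2 and HFD3 and 36.1, 71.9 and 34.5 RPKM in LYC1, LYC2 and LYC3. Every LYC library was above every HFD library, by a log2 fold change of 1.68 ± 0.36 (SE) with an adjusted p of 0.0217 by limma. The LYC values rested on 7, 11 and 7 reads, and the call held in all 6 fits that left out a library. Those fits reused the gene filter of all 6 libraries, which Snrpe passed through LYC only. They therefore cannot test that selection. Once the dependence of RPKM on gene length was taken out of each library, the log2 fold change of this short gene was 1.11 and no longer called.

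Snrpd1, another protein of the Sm ring, gave 19.3, 18.4 and 12.9 RPKM in HFD and 24.2, 73.0 and 26.1 RPKM in LYC, in replicate order. The groups did not overlap, and LYC2 stood well above the other libraries. Its log2 fold change was 1.34 ± 0.39 (SE) with an adjusted p of 0.0584 by limma. The call was lost without HFD1 (1.49), HFD2 (1.32), HFD3 (1.22) or LYC2 (0.92), with the length trend removed (0.99), and with no filter (1.34, unadjusted p 0.0114 by limma). Snrpd3, the ring protein with the highest mean RPKM, had 37.7, 32.3 and 25.8 RPKM in HFD and 54.6, 63.9 and 24.1 RPKM in LYC. Its groups overlapped through LYC3, with a log2 fold change of 0.74 ± 0.39 (SE) and an adjusted p of 0.232 by limma. It was called without LYC3 (1.18), but was 0.50 without LYC1, 0.55 without LYC2 and 0.26 with the length trend removed. Snrpb, which encodes the largest ring proteins, had 29.6 ± 8.40 RPKM in HFD and 19.9 ± 8.00 in LYC (SD, n = 3), with a log2 fold change of -0.30.

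Snrpa encodes a protein of the U1 snRNP, which recognises the start of the intron. It had 17.8, 14.8 and 14.1 RPKM in HFD and 0, 4.72 and 5.34 RPKM in LYC, where only 0, 2 and 3 reads were found. All LYC values lay below HFD. The fitted log2 fold change was -2.15 ± 0.67 (SE) with an unadjusted p of 0.0113 and an adjusted p of 0.0731 by limma, so it was not called. The fit without any filter gave an unadjusted p of 0.0234 by limma. Leaving out LYC1 (-1.27), LYC2 (-2.53) or LYC3 (-2.65) made it a call, from at most 5 LYC reads. Snrpa passed the filter, reused in those fits, through HFD only. Exons of Snrpa overlap those of BC024978 on the opposite strand, and whether the counting used strand is not given in the sources used here.

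The other 7 Snrp genes had too few reads for the test. They were the ring proteins Snrpd2, Snrpf and Snrpg, the U1 protein Snrpc, the U2 proteins Snrpa1 and Snrpb2, and Snrpn, a relative of Snrpb. Snrpg was the most abundant of these, with 30.6 ± 13.8 RPKM in HFD and 32.4 ± 11.5 in LYC (SD, n = 3), from 3, 5 and 6 LYC reads. Snrpd2, Snrpf and Snrpb2 had no read in LYC3, and Snrpn had none in LYC2 and LYC3. Snrpn also shares exons with Snurf and Snhg14 on its own strand, so reads there may belong to any of the 3 genes. All groups of these 7 genes overlapped. The TMM-scaled RPKM summed over the 7 ring genes was 135 ± 23.6 in HFD and 241 ± 94.0 in LYC (SD, n = 3), a ratio of 1.78 with overlapping groups.

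Within SF3, the SF3A complex has 3 subunits and SF3B is represented here by 6. Sf3b1, the large subunit that clamps the branch point, had 11.6, 13.2 and 8.71 RPKM in HFD and 25.8, 32.2 and 17.2 RPKM in LYC. These groups did not overlap, and the LYC values rested on 63, 62 and 44 reads, the most of any SF3 gene. The log2 fold change was 1.35 ± 0.31 (SE) with an adjusted p of 0.0285 by limma, and the call was lost only without HFD3 (1.24) among the 6 fits that left out a library. Sf3b1 lies at chr1:54985169-55027501.

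Sf3a3, a zinc-finger subunit of SF3A, lies at chr4:124714861-124732423. It showed 4.97, 4.55 and 8.47 RPKM in HFD and 14.9, 13.3 and 14.3 RPKM in LYC, from 10, 7 and 10 LYC reads, and every LYC library lay above HFD. Its log2 fold change was 1.41 ± 0.35 (SE) with an adjusted p of 0.0365 by limma. The call was lost without HFD1 (1.35), HFD2 (1.19) or LYC1 (1.29), and with a pseudocount of 5 (0.996). Its SF3A partners are given beside it, and no difference between the subunits was tested. Sf3a1, the largest subunit, had 3.58, 4.99 and 3.66 RPKM in HFD and 0.516, 1.96 and 6.42 RPKM in LYC. The groups overlapped, with a log2 fold change of -0.46 ± 0.54 (SE) and an adjusted p of 0.596 by limma, and the sign turned without LYC1 (0.061). Sf3a2 had too few reads for the test, since HFD held 25, 39 and 11 reads and LYC 0, 0 and 2. This corresponded to 6.21 ± 1.44 RPKM against 0.966 ± 1.67 RPKM (SD, n = 3), without overlap.

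Of the other SF3B subunits, Sf3b2, which contacts the pre-mRNA close to the branch point, had the family's highest mean RPKM over the 6 libraries together. Within HFD Sf3b5 was higher (17.0 against 15.8), and within LYC Sf3b1 (25.1 against 24.8). It had 13.8, 18 and 15.6 RPKM in HFD and 11.8, 40.8 and 21.8 RPKM in LYC. As deposited, LYC1 lay below HFD and LYC2 far above it, while after TMM scaling LYC1 lay within the HFD range. Its log2 fold change of 0.73 ± 0.37 (SE) had an adjusted p of 0.225 by limma. Sf3b3, Sf3b4 and Sf3b6 had log2 fold changes of -0.27, -0.01 and 0.22 with overlapping groups after TMM scaling. As deposited, every LYC value of Sf3b3 lay below every HFD value. LYC2 decided the LYC mean of Sf3b6, with 40.3 RPKM against 6.81 and 8.70 in LYC1 and LYC3. Sf3b5, a small subunit, was not tested, and had 17.0 ± 4.59 RPKM in HFD and 4.86 ± 1.85 in LYC (SD, n = 3), without overlap but from 4 LYC reads in all. TMM-scaled RPKM summed over SF3 was 87.5 ± 9.48 in HFD and 118 ± 25.9 in LYC (SD, n = 3), a ratio of 1.34 without overlap. With scaling by total reads the ratio was 1.12 and the groups overlapped.

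Of 9 SR genes tested, 1 was called higher in LYC (11.1%, beside 6.86% of all genes) by limma on TMM-scaled RPKM, edgeR or DESeq2. None was called lower in these fits (6.41% of all genes), while Srsf4 and Srsf5 lay lower with unadjusted limma p-values of 0.025 and 0.0205. Srsf4 passed the filter through HFD only, where it was high. With total reads as the only scaling, limma called Srsf5 lower. Srsf3 (gene at chr17:29032660-29043372), with the shortest coding sequence of these SR genes, was the one called higher. It had 10.3, 13.9 and 10.2 RPKM in HFD and 15.0, 38.1 and 28.7 RPKM in LYC. No library overlapped, and the log2 fold change was 1.37 ± 0.32 (SE) with an adjusted p of 0.0289 by limma. The call was lost without HFD1 (1.34).

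Srsf5 had the highest mean RPKM of the SR genes in HFD and over the 6 libraries together, and the lowest log2 fold change. Within LYC Srsf3 had the highest mean (27.3 against 18.3 RPKM for Srsf5). The values of Srsf5 were 58.0, 49.2 and 36.0 RPKM in HFD and 13.2, 33.6 and 7.92 RPKM in LYC. All LYC libraries were below HFD, LYC2 only narrowly. The log2 fold change of -1.27 ± 0.45 (SE) had an unadjusted p of 0.0205 and an adjusted p of 0.104 by limma, so it was not called. It was called without LYC2 (-1.74) and with total reads as the only scaling (-1.55). Without LYC3 it was -0.82 and without HFD1 -1.08, not called.

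Srsf4 and Srsf6, relatives of Srsf5, also lay lower in every LYC library without passing the test. Srsf4 had 14.0, 14.8 and 8.51 RPKM in HFD and 2.25, 5.71 and 6.46 RPKM in LYC, with a log2 fold change of -1.02 ± 0.38 (SE) and an adjusted p of 0.116 by limma. Srsf6 had 17.7, 21.1 and 17.6 RPKM in HFD and 8.58, 13.6 and 5.47 RPKM in LYC, with a log2 fold change of -0.76 ± 0.34 (SE) and an adjusted p of 0.171 by limma. The groups of both genes did not overlap. Their names were singled out after their values were seen. Srsf9 showed a like pattern, with 10.1 ± 0.746 RPKM in HFD and 3.29 ± 2.98 in LYC (SD, n = 3), but had too few reads for the test (2, 0 and 3 in LYC).

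Srsf7, the closest relative of Srsf3, had 6.79 ± 1.50 RPKM in HFD and 8.71 ± 1.21 in LYC (SD, n = 3). Its log2 fold change of 0.58 was not called, and its TMM-scaled groups did not overlap. Srsf10, an SR protein that represses splicing when dephosphorylated, had 8.24 ± 2.06 RPKM in HFD and 13.2 ± 2.71 in LYC (SD, n = 3) without overlap, with a log2 fold change of 0.90 ± 0.34 (SE) and an adjusted p of 0.122 by limma. Srsf1, Srsf2 and Srsf11 overlapped between the groups after TMM scaling, with log2 fold changes of -0.56, -0.30 and 0.74. As deposited, every LYC value of Srsf1 lay below HFD, though narrowly (9.25 RPKM in LYC2 against 9.27 in HFD3). In all, 4 of the 9 SR genes tested had a positive and 5 a negative fold change. Over all 11 SR genes the summed TMM-scaled RPKM was 134 ± 11.1 in HFD and 122 ± 28.0 in LYC (SD, n = 3), a ratio of 0.905 with overlapping groups.

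The hnRNP genes had the highest summed level of the 4 families, and 18 of the 20 were tested. Hnrnpa2b1, which binds UAG-rich RNA and transports mRNA (gene at chr6:51460434-51470048), had 60.5, 43.5 and 54.1 RPKM in HFD and 89.0, 151 and 87.3 RPKM in LYC. The LYC values rested on 80, 107 and 82 reads and lay above every HFD value. The log2 fold change was 1.28 ± 0.29 (SE) with an adjusted p of 0.0266 by limma, and the call held in all 6 fits that left out a library.

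Hnrnpk had 62.6, 65.8 and 57.8 RPKM in HFD and 93.3, 155 and 85.0 RPKM in LYC. Here too no LYC library reached down to HFD. The log2 fold change was 1.06 ± 0.26 (SE) with an adjusted p of 0.0319 by limma, near the fold that a call needs, and was lost without HFD2 (1.01), HFD3 (1.07) or LYC2 (0.88). The gene lies at chr13:58391132-58403343, holds Mir7-1 in an intron and shares exon sequence with Rmi1 on the opposite strand.

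Hnrnpa0, a single-exon gene at chr13:58125879-58128556 whose protein binds AU-rich elements, went the other way. It had 35.9, 43.6 and 32.2 RPKM in HFD and 5.68, 9.60 and 13.6 RPKM in LYC. Every LYC library was below every HFD library, from 6, 8 and 15 LYC reads. The log2 fold change was -1.64 ± 0.31 (SE) with an adjusted p of 0.0149 by limma, the smallest among the members, and the call held in all 6 fits that left out a library.

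Among the A/B-type hnRNPs, relatives by their paired RNA recognition motifs, Hnrnpa1, Hnrnpa3 and Hnrnpab were not called in either direction. Hnrnpa1 had 19.7 ± 2.79 RPKM in HFD and 13.8 ± 1.19 in LYC (SD, n = 3), with a log2 fold change of -0.20 after scaling. Hnrnpa3 had 55 ± 1.89 RPKM in HFD and 63.5 ± 24.1 in LYC (SD, n = 3), with 0.41, and Hnrnpab had -0.12. No difference between these relatives was tested.

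Hnrnpc, which binds U-rich tracts, had 15.2 ± 3.02 RPKM in HFD and 21.0 ± 6.14 in LYC (SD, n = 3). Its log2 fold change of 0.69 was not called. Hnrnpl, which binds CA repeats, had 26.6 ± 9.71 RPKM in HFD and 36.1 ± 6.10 in LYC (SD, n = 3), with 0.75. The relative Hnrnpll had -0.12. Hnrnpd, also called AUF1, had 0.48, and with Hnrnpc and Hnrnpl it had TMM-scaled groups that did not overlap, as did Hnrnpul1 in the other direction (-0.26).

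The H/F proteins, which bind G-rich RNA, were spread on both sides of 0, with Hnrnpf at 0.45, Hnrnph2 at 0.55 and Hnrnph1 at -0.36, all with overlapping groups. Hnrnph1 and Hnrnph2 are close in sequence, and how reads that fit several copies were counted is not given in the sources used here. Hnrnpu had a log2 fold change of 0.52, Hnrnpm -0.18, Hnrnpul2 -0.21 and Hnrnpr -0.55, also with overlap after TMM scaling. As deposited, every LYC value of Hnrnpul2 and of Hnrnpr lay below every HFD value, as did those of Hnrnpa1 and Hnrnpll. The untested Hnrnpdl and Hnrnph3 had 4.45 ± 1.76 and 3.82 ± 1.11 RPKM in HFD and 5.61 ± 3.73 and 2.20 ± 1.93 RPKM in LYC (SD, n = 3). TMM-scaled RPKM summed over the hnRNP genes was 451 ± 39.7 in HFD and 635 ± 124 in LYC (SD, n = 3), a ratio of 1.41 without overlap. Scaling by total reads made it 1.16 with overlap. Hnrnpk and Hnrnpa2b1, both called higher, had the highest LYC means (111 and 109 RPKM as deposited) and so weigh most in the LYC sum. Of the 18 hnRNP genes tested, 9 had a positive and 9 a negative fold change.

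The family medians of the log2 fold change over the members tested were 0.74 for Snrp (5 of 12 members), 0.22 for Sf3 (7 of 9), -0.30 for Srsf (9 of 11) and 0.15 for Hnrnp (18 of 20), beside -0.10 for all genes. Leaving out a library in turn moved them from 0.50 to 1.18, from 0.11 to 0.59, from -0.67 to -0.03 and from 0.09 to 0.20. Measured from all genes, the Srsf median was positive without HFD3 (0.03) or LYC1 (0.08). The filter on reads shapes these medians, and over all members with reads they were 0.25, -0.01, -0.43 and 0.15. With scaling by total reads alone the median of all genes was -0.36 and the family medians 0.46, -0.04, -0.57 and -0.12, so the SF3 and hnRNP medians changed sign. Measured from the median of all genes they were 0.82, 0.32, -0.21 and 0.24, close to the 0.85, 0.32, -0.20 and 0.25 of the TMM scaling.

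Counted over all 52 members, 12 had every LYC library above every HFD library in TMM-scaled RPKM and 9 had every LYC library below, 3 of the 9 being the untested Sf3a2, Sf3b5 and Srsf9. Of the 39 tested, 12 lay above (30.8%) and 6 below (15.4%), beside 18.5% and 19.3% of all genes tested. With scaling by total reads, 8 of the 39 lay above (20.5%) and 12 below (30.8%), beside 9.87% and 27.5% of all genes tested. For a single gene of 3 against 3 libraries the exact permutation test cannot go below 0.1, so such a gene does not reach significance alone. LYC2 was the highest LYC library in 17 of the 39 members tested (43.6%) and LYC3 in 8 (20.5%), against 34.5% and 33.3% of all genes.

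Gene length moved with the fold change in the whole table. Genes under 700 bases had a median log2 fold change of 0.73 (300 genes), genes of 1500 to 2000 bases -0.0044 (634 genes) and genes of 5000 bases or more -0.29 (1355 genes). The Snrp genes are short, with a median of 825 bases against 3138 for all genes tested. With the length trend of each library removed, the family medians were 0.26 for Snrp, -0.03 for Sf3, -0.33 for Srsf and 0.25 for Hnrnp, beside -0.03 for all genes. Of the calls, Snrpe and Snrpd1 were lost and Snrpa was gained in the lower direction. Sf3b1, with 6191 bases, kept its call and lay against the trend.

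**Figure D4:**
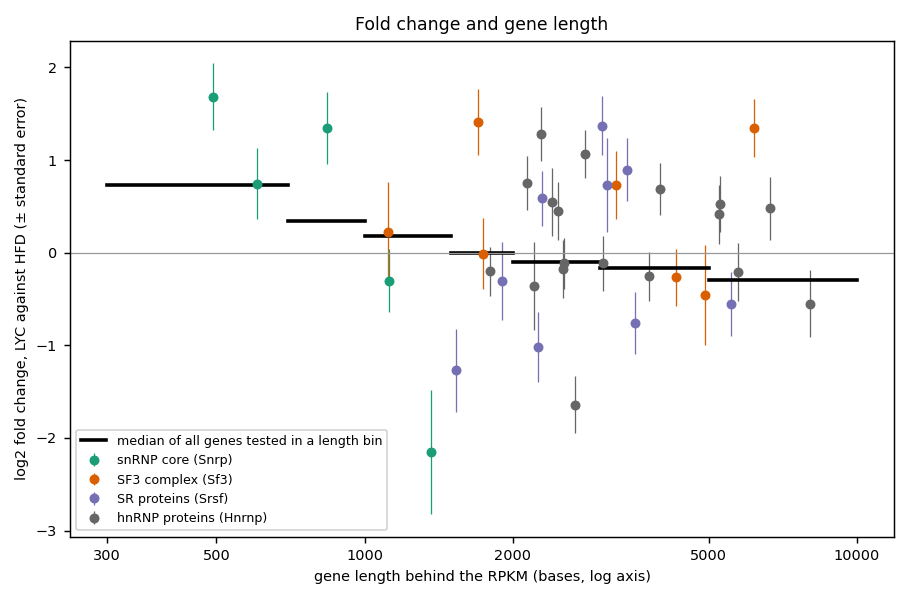
Log2 fold change, LYC against HFD, with its standard error for each member tested against the gene length behind its RPKM (log axis), coloured by family; black lines are medians of all genes tested in each length bin. The line falls from 0.73 for genes under 700 bases to -0.29 for genes of 5000 bases or more, with Snrpe at the short end and Sf3b1 at the long end both above it.

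Of 171 other genes of splicing and mRNA handling in 5 lists, 97 were tested, and 8 were called higher (8.25%) and 3 lower (3.09%), beside 6.86% and 6.41% of all genes, with a median log2 fold change of 0.06. The same fit called 396 of all genes higher and 370 lower, and counts of all genes follow in brackets. The 8 became 3 with scaling by total reads (235), 4 with a pseudocount of 5 (329) and 13 with edgeR (490) or DESeq2 (509). The 3 became 1 with a pseudocount of 5 (225) and 5 with no filter (718). Calls higher were 4 without HFD1 (316), HFD2 (303) or HFD3 (289) and 13 without LYC3 (516). Calls lower were 1 without HFD1 (184), HFD2 (193) or HFD3 (154) and 5 without LYC2 (414) or LYC3 (578). Among 40 other core spliceosome genes, 3 were called higher and 1 lower (median 0.18). Cwc15, a protein of the catalytic spliceosome, had 8.60, 15.2 and 7.28 RPKM in HFD and 46.2, 61.4 and 25.3 RPKM in LYC. Its groups were far apart, with a log2 fold change of 2.24 ± 0.37 (SE) and an adjusted p of 0.00853 by limma. Eftud2, the GTPase of the U5 snRNP, had 1.38 ± 0.34 (SE, adjusted p 0.0355 by limma), and Cdc5l, of the Prp19 complex, 1.05 ± 0.31 (SE, adjusted p 0.0651 by limma). Ppih, a cyclophilin of the tri-snRNP, was lower by -2.45 ± 0.66 (SE, adjusted p 0.0465 by limma), with 3 LYC reads, all in LYC2. It passed the filter through HFD only, so it could enter the test only by being high there. With no filter it was not called.

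In the list of SR kinases, the SR importer and SR-related proteins, 16 were tested (median -0.20). The U1-associated relatives Luc7l3 and Luc7l2 were called in opposite directions. Luc7l3 had 7.10, 10.2 and 4.06 RPKM in HFD and 29.4, 12.4 and 17.6 RPKM in LYC, a log2 fold change of 1.62 ± 0.44 (SE) with an adjusted p of 0.0474 by limma. Luc7l2 had 15.1, 16.3 and 14.0 RPKM in HFD and 4.77, 4.84 and 5.94 RPKM in LYC, a log2 fold change of -1.13 ± 0.29 (SE) with an adjusted p of 0.0381 by limma. Neither gene overlapped between the groups.

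Among 26 other hnRNP-like regulators (median -0.08), Rbm39, a relative of the U2AF splicing factor, was called higher with 1.40 ± 0.36 (SE, adjusted p 0.0402 by limma). Tial1, which binds U-rich RNA, was called lower with -1.68 ± 0.34 (SE, adjusted p 0.0192 by limma). It passed the filter through HFD only, with 3, 1 and 3 LYC reads, so it could enter the test only by being high there. With no filter it was also called. Of 19 genes that assemble the Sm ring or handle its snRNAs, only 4 could be tested (median 0.79). Xpo1, an export receptor whose cargo includes new snRNAs, was called higher with 1.29 ± 0.29 (SE, adjusted p 0.0246 by limma). Of 11 exon junction and mRNA export genes tested (median 0.34), Thoc7 and Thoc5 of the THO complex were called higher, with 1.45 ± 0.29 and 1.34 ± 0.30 (SE, adjusted p 0.0167 and 0.0268 by limma). Both passed the filter through LYC only, so they could enter the test only by being high there. With no filter both were also called. Several of these calls of the 5 lists were lost when a library was left out. Cdc5l was lost without any of the 6 (0.91 to 1.23), Ppih without any but LYC2 (-2.54 to -2.02), and Luc7l2 without HFD1, HFD2 or HFD3 (-1.17 to -1.09). Luc7l3 was lost without HFD1, HFD3, LYC1 or LYC3 (1.22 to 1.69), and Rbm39 without HFD2, HFD3, LYC1 or LYC2 (1.16 to 1.40). Eftud2 was lost without HFD1 (1.20) or HFD2 (1.30), Thoc5 without HFD1 (1.20) or HFD2 (1.33), and Xpo1 without HFD3 (1.20). Cwc15, Tial1 and Thoc7 kept their calls in these fits, which reused the gene filter of all 6 libraries. With a pseudocount of 5, Tial1 (-0.87), Luc7l2 (-0.80), Cdc5l (0.68), Eftud2 (0.95), Xpo1 (0.90) and Thoc5 (0.96) were no longer called. Cdc5l was also lost with edgeR, DESeq2, no filter and the block of replicate numbers, Luc7l2 with that block and with the length trend removed, and Ppih with no filter.

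Libraries labelled RNA-seq carry the same group and replicate labels. Over 24586 genes each correlated best across genes with a Ribo-seq library of its own diet group (Pearson r of log2 values 0.928 to 0.958), for LYC the library of the same replicate number in 3 of 3 cases. For HFD the best match was shifted, RNA-labelled HFD1 to Ribo-seq HFD2 (0.958), HFD2 to HFD3 (0.952) and HFD3 to HFD1 (0.950), and whether those columns are numbered as the labels say was not tested. Genes are not independent replicates, and these libraries were not used as a separate measure of mRNA. Translational efficiency of the splicing factors was therefore not analysed here. At the loci of the members the annotation places 6 small RNA genes, all in introns. Pseudogenes left out, 14 members share exon sequence with a gene on the opposite strand, and Snrpn does so with the pseudogene Gm18908.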

How the data were processed

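Per the labels and the study's methods, liver extract was digested with RNase I, ribosomes were pelleted and rRNA was depleted. The authors used cutadapt and Bowtie2 for cleaning, STAR for alignment to GRCm38/mm10 and FANSE2 for quantification. Versions, annotation and strand setting are not given in the sources used here. The authors deposited RPKM for the Ribo-seq libraries. The deposited RNA-seq table holds read counts and RPKM, used here only for gene lengths and the correlation between libraries. No column lacked a sample.

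Reads were recovered from RPKM steps, with lengths from the second table for 11129 genes and fitted for 4620 (tolerance 0.02 reads). Dates that had replaced gene names left 4 duplicated rows, which were dropped. Genes were kept by edgeR's filterByExpr, RPKM was divided by TMM factors (0.80 to 1.26) and 1 was added before log2. limma was fitted with a mean-variance trend and no covariate, and p-values were adjusted by Benjamini-Hochberg over 5776 genes. The fit was tested on simulated data.

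Values per library are given for called members, and per family for the highest mean over the 6 libraries and the largest change in each direction. Of each other list, called genes are named, at most 3 a direction. The members, lists and motifs were chosen with earlier results of these data known. Versions were limma 3.58.1, DESeq2 1.42.0 and edgeR 4.0.16 under R 4.3.3, with pandas 2.3.3, matplotlib 3.10.9 and numpy 2.4.6 under Python 3.11.15.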

Additional observations from a re-analysis of the deposited data

How the results depend on the processing

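Of the 39 members tested, 7 were called higher (17.9%) and 1 lower (2.56%), beside 6.86% and 6.41% of all genes tested. With total reads as the only scaling, 2 were called higher (Sf3a3 and Snrpe) and 3 lower (Hnrnpa0, Snrpa and Srsf5), while 235 and 651 of 5776 genes were called (4.07% and 11.3%). Of these members, Sf3a3 and Snrpe had passed the filter through LYC only, and Snrpa through HFD only. With that scaling 15 of 52 members instead of 9 lay lower without overlap and 8 instead of 12 higher. Of the 39 tested this was 12 lower and 8 higher (30.8% and 20.5%), beside 27.5% and 9.87% of the genes tested. A limma p below 0.001, unadjusted, left 0 members called higher and 1 lower (192 and 102 of all genes), while at p below 0.05 it was 10 and 4 members (852 and 875 of all genes). Calls lower became 2 with a pseudocount of 5 (225 of all genes), no filter (718), the replicate block (351), the length trend removed (345), or total reads centred on the median of all genes (296), an alternative chosen after seeing the data. Calls higher were 6 with a pseudocount of 5 (329 of all genes), 6 with no filter (434) and 5 with the length trend removed (377). Leaving out each library in turn gave 4 to 8 calls higher, with 4 without HFD replicate 1, 2 or 3, and 1 to 3 lower, where all genes gave 289 to 516 higher and 154 to 578 lower. edgeR and DESeq2 on recovered reads, and a pseudocount of 0.5, gave 7 and 1. Of all genes, edgeR called 490 higher and 403 lower, DESeq2 509 and 389, and the pseudocount of 0.5 gave 399 and 346. The log2 fold change of Sf3a1 (-0.46) ran from -1.08 without LYC replicate 3 to 0.061 without LYC replicate 1. With the replicate block 7 were called higher and 2 lower, but same-numbered libraries of HFD and LYC come from different mice, and their deviations correlated by 0.11, 0.03 and 0.01. The cause of these shifts was not tested. LYC depth limits members with few reads, by low level or short length, and 13 members were not tested.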
